A study of Mus musculus with 9 samples.

Results

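The collagen genes are described here: every gene whose mouse symbol has the form Col, a number, the letter a and a number. This rule found 43 of the 22999 genes measured. Where a symbol had several RefSeq entries, as 6 did, the entry with the highest normalised count was kept, and the other 37 had 1 entry. Col12a1 was not analysed here. The rule used only symbols, but counts chose the entry of those 6, and members and lists were chosen with earlier results of these data known.

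Collagens are extracellular proteins whose chains wind into a triple helix. Fibrillar collagens (types I, III and V among them) form the fibres of skin, bone, tendon and stroma, and type II with types IX, X and XI builds cartilage. Type IV forms the network of basement membranes, type VI forms beaded filaments around cells, and types VII and XVII anchor epithelium to the tissue under it. Medullary thymic epithelial cells (mTEC) transcribe many genes of other tissues, so that developing T cells meet self-antigens, and the transcriptional regulator Aire is needed for a large share of them. Several collagens are targets of autoimmunity, among them the chain Col4a3 in Goodpasture disease, Col17a1 and Col7a1 in blistering skin disease, and Col2a1 in arthritis models.

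The series held 9 RNA-seq libraries in 9 groups, so no group had a replicate. All cells were mTEC sorted from the pooled thymi of B6 mice, as MHC class II high (mTEChi, the mature cells) or low (mTEClo). The Aire-KO (Aire-/-) mTEChi library was paired with a WT mTEChi library, and the mTEChi Exp2 library with the mTEClo Exp2 library from the same mice. WT mTEChi were also kept in actinomycin D (1 uM), which blocks transcription, for 1.5, 3, 6 and 12 h, with an untreated library as 0 h. The WT partner of the Aire-KO library, mTEChi Exp2 and the 0 h library, in this order, are called the 3 untreated WT libraries. They came from different experiments, so tests that use them as replicates measure the spread between experiments, and the lone library on the other side was assumed to vary as much.

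Total reads were between 74161592 and 195444567 in the pairs and 91610143 at 0 h, and in actinomycin D they were 21124165 (1.5 h), 13953047 (3 h), 11295960 (6 h) and 1746825 (12 h). Levels are CPM, the reads of a gene scaled to the total reads of its library, and folds of a pair use the normalised counts, which set the Aire-KO over WT fold 1.17-fold higher and the mTEChi over mTEClo fold 0.952-fold as high as the ratio of CPM. Intervals of folds are exact 95% intervals of counting error only, and a count of 0 was set at 3 reads. In the pairs both mates of a fragment were counted as reads, so these intervals are narrower than fragments would give. Aire itself stood at 661 CPM in the Aire-KO library, against 259 CPM in its WT library and 444 CPM in mTEChi Exp2. That entry sums all exons, so it does not check the knockout, and every Aire-KO fold rests on the assignment of the paired columns given in the processing notes. The epithelial markers Epcam and Krt8 were at 311 and 2010 CPM in Aire-KO cells, against 450 and 2018 CPM in the WT partner. In bulk samples, fewer cells of a type and less RNA per cell cannot be told apart.

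All 43 collagen genes were read in both pairs. Per kilobase of exon, the highest were Col4a1, which averaged 29.0 CPM per kb over the 3 untreated WT libraries, then Col6a1 with 16.2, Col6a2 with 13.0, Col4a2 with 11.8 and Col17a1 with 10.8 CPM per kb. Basement membrane chains, beaded filament chains and an epithelial anchoring collagen thus led the order. The stromal type I chains followed at a lower level, Col1a1 with 6.83 and Col1a2 with 2.19 CPM per kb, and Col10a1 of growth plate cartilage stood above both with 9.34 CPM per kb. The lowest was Col25a1, a membrane collagen of neurons, with 0.130 CPM per kb. The top of the order also varied between experiments: Col4a1 had 149, 168 and 258 CPM in the 3 untreated WT libraries. Neighbours in the order overlapped, such as Col6a2 with 15.6, 8.30 and 15.1 CPM per kb and Col4a2 with 10.8, 9.82 and 14.8 CPM per kb.

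Without Aire, 12 of the 43 collagen genes were at least 3-fold lower, beside 21.1% of all entries. They were Col10a1, Col11a1 and Col9a1 of cartilage, the type IV chains Col4a3, Col4a4 and Col4a5, the minor fibrillar chains Col5a3 and Col24a1, the short chain Col8a2, the membrane collagens Col13a1 and Col23a1, and Col28a1. Only Col14a1 and Col19a1, fibril-associated collagens, were at least 3-fold higher, beside 2.03% of all entries. Another 24 collagens were within 2-fold, beside 17535 of 26761 entries. The median fold of the 43 was 0.670, against 0.978 over all entries. The member nearest the limit from outside was Col8a1, 2.98-fold lower, and those nearest from inside were Col5a3, 3.39-fold lower, and Col14a1, 3.05-fold higher. With CPM in place of normalised counts, Col14a1 and Col19a1 both dropped under 3-fold and 14 genes were at least 3-fold lower. Over all entries, 23.4% were then at least 3-fold lower and 1.27% at least 3-fold higher.

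**Figure D1:**
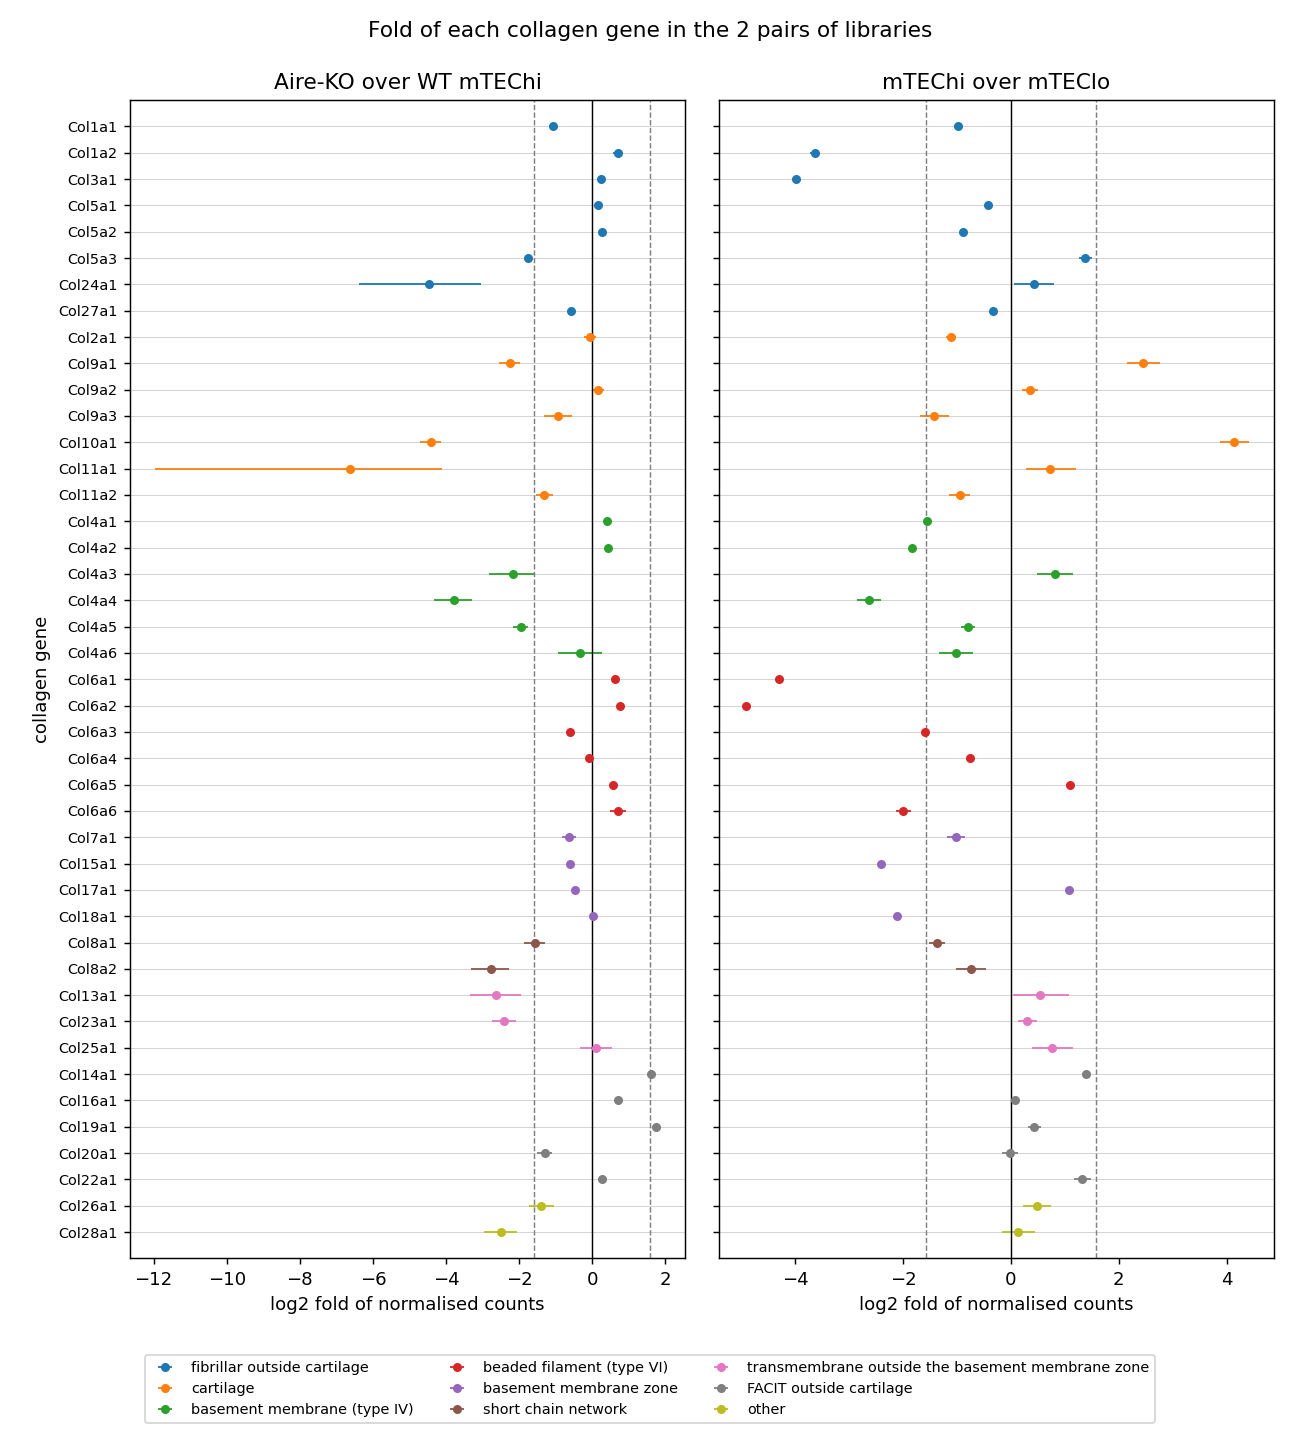
Log2 fold of normalised counts of each of the 43 collagen genes in the Aire-KO over WT pair (left) and the mTEChi over mTEClo pair (right), coloured by class; bars are exact 95% intervals of counting error and dashed lines mark 3-fold. On the left 12 genes lie at or past the lower line and 2 past the upper one, and on the right 10 and 2.

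Col10a1, the type X chain that marks hypertrophic chondrocytes in the growth plate, had 0.741 CPM in Aire-KO cells, against 18.6, 30.2 and 38.8 CPM in the 3 untreated WT libraries. Its level in Aire-KO cells was far under that of every WT library, at a fold of 21.4 lower (17.6 to 26.3) in the pair. Col11a1, a type XI chain that starts cartilage fibrils, had 0.00699 CPM (1 read) in Aire-KO cells, against 0.815, 1.18 and 1.84 CPM in WT cells. With 1 read, its ratio of 0.0101 has an interval of 0.000252 to 0.0576. Col24a1, a minor fibrillar chain, had 0.0280 CPM (4 reads) in Aire-KO cells, against 0.729, 1.46 and 2.37 CPM in WT cells, 22.2-fold lower (8.33 to 83.6) in the pair. These were the 3 of 42 collagen genes that fell in edgeR's quasi-likelihood test of the Aire-KO library against the 3 untreated WT libraries, where 8.64% of all entries fell and 0.0878% rose, and no collagen rose. Col10a1 changed by a log2 fold of -5.00 (SE 0.73, adjusted p = 0.0109 by edgeR), Col11a1 by -7.05 (SE 1.15, adjusted p = 0.0140 by edgeR) and Col24a1 by -5.41 (SE 1.08, adjusted p = 0.0251 by edgeR). The 3 genes also passed in each alternative fit. At an unadjusted p under 0.05, 14 of the 42 collagens were lower, beside 20% of all entries, and 1 was higher, beside 1.15%. DESeq2 called 12 of the 42 lower, beside 15.6% of all entries.

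The promoters of these 3 genes are shown because they are the ones that passed the test, with 3 motifs in capitals, each searched on both strands: TATAAA (the core of a TATA box), the box CCAAT, and GGGCGG (a GC box). Each window runs from 250 bases before to 50 after the start of the gene, 5′ to 3′ on the strand of the gene, as RefSeq gives it on GRCm38.p6: Col10a1 at chr10:34389731-34390030, plus strand, Col11a1 at chr3:114030290-114030589, plus strand, and Col24a1 at chr3:145292222-145292521, plus strand.
Col10a1: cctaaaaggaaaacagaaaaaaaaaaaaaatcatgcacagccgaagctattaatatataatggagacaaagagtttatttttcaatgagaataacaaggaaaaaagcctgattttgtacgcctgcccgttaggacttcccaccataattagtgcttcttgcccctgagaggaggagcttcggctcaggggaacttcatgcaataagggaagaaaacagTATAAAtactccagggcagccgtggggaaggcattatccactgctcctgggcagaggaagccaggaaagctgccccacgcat
Col11a1: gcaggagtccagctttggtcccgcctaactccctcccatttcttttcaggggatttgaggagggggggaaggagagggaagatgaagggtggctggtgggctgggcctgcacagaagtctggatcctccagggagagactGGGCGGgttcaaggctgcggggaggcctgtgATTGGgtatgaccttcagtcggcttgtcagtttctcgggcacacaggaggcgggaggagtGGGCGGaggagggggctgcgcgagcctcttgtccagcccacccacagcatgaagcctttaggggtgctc
Col24a1: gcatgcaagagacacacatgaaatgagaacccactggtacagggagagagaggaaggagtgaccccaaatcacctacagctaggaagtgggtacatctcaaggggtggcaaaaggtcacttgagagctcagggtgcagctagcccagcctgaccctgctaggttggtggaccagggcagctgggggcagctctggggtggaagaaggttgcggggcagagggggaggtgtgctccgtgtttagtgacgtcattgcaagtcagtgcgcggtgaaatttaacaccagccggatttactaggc
Col10a1 held a TATAAA at base 219 of its window, which 13.6% of all 32851 windows hold, and neither of the other motifs. Col11a1 held GGGCGG at bases 141 and 232 and CCAAT on the other strand at base 172, and Col24a1 held none of the motifs. Among the 35 collagens with a window, GGGCGG was in 5 of 12 windows of the genes at least 3-fold lower, in 16 of 22 windows of those within 2-fold, and in 35.7% of all windows; CCAAT was in 4 of 12 and 9 of 22, against 37.4% of all.

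The other cartilage collagens spread widely. Col9a1, the type IX chain that coats cartilage fibrils, had 0.853 CPM in Aire-KO cells, against 4.80, 7.67 and 4.46 CPM in the 3 untreated WT libraries, 4.80-fold lower in the pair, but its adjusted p of 0.0697 by edgeR missed the limit. Its partner chain Col9a2 had 5.32 CPM in Aire-KO cells, against 5.60, 8.60 and 13.3 CPM in WT cells, a fold of 1.11 (0.999 to 1.24). Col2a1, the main chain of cartilage, had 4.24 CPM in Aire-KO cells, against 5.22, 10.4 and 12.1 CPM in WT cells, and its fold of 0.951 had an interval of 0.846 to 1.07. The 7 cartilage genes ranged from a fold of 0.0101 to 1.11, with a median of 0.404. In CPM all 7 lay below every untreated WT library, as did 46.7% of all entries. CPM sets the Aire-KO library lower than the normalised counts do, and Col9a2 was below its WT partner in CPM but had a fold of 1.11 in normalised counts.

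Within type IV, the pair Col4a1 and Col4a2, which make the network of nearly all basement membranes, differed from the chains of kidney and lung basement membranes. Col4a1 had 169 CPM in Aire-KO cells, against 149, 168 and 258 CPM in the 3 untreated WT libraries, and Col4a2 had 78.7 CPM, against 69.2, 63.1 and 95.4 CPM. Both lay inside the WT range, and their folds in the pair were 1.32 and 1.33. Col4a3, the Goodpasture antigen, had 0.203 CPM (29 reads) in Aire-KO cells, against 1.07, 2.27 and 2.04 CPM in WT cells, 4.52-fold lower (2.98 to 7.05). Col4a4 had 0.245 CPM in Aire-KO cells, against 3.99, 1.29 and 3.31 CPM, and was 13.9-fold lower (9.83 to 20.2). Col4a5 had 1.71 CPM in Aire-KO cells, against 7.77, 6.47 and 13.6 CPM, and was 3.89-fold lower (3.36 to 4.50). The Aire-KO library was under all 3 WT libraries for each of these chains, yet against the spread of the WT libraries edgeR gave adjusted p-values of 0.0651, 0.0696 and 0.0874 for Col4a3, Col4a4 and Col4a5, and DESeq2 called all 3. Col4a6 had 0.336 CPM in Aire-KO cells, against 0.498, 1.05 and 1.71 CPM, and its fold of 0.790 had an interval of 0.522 to 1.19.

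The type IV genes lie head to head in pairs, so that their starts are close. On NCBIM37 (mm9), Col4a1 (chr8:11198423-11312826, minus strand) and Col4a2 (chr8:11312805-11449287, plus strand) start 21 bases apart, with 22 bases of exon in common. Only reads wholly within an exon were counted, and this overlap is too short to hold a whole read. Col4a3 and Col4a4 on chromosome 1 start 72 bases apart and Col4a5 and Col4a6 on chromosome X 1309 bases apart. Their promoter windows on GRCm38.p6 are shown because Col4a1 and Col4a2 shared 78 bases there and stood at like folds in both pairs: Col4a1 at chr8:11312777-11313076, minus strand, and Col4a2 at chr8:11312555-11312854, plus strand, with the same motifs in capitals.
Col4a1: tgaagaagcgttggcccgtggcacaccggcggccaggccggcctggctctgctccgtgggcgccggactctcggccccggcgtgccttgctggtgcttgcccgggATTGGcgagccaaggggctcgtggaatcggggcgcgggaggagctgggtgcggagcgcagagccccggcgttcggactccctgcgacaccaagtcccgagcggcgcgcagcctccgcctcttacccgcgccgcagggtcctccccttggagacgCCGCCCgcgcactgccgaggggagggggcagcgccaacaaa
Col4a2: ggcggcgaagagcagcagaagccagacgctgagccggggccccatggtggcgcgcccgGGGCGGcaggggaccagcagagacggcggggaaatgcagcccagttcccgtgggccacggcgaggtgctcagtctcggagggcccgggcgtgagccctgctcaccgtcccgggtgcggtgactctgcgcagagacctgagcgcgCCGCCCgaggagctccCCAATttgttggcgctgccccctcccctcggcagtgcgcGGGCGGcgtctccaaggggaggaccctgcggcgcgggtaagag
Col4a1 over Col4a2 was 2.08 per length in Aire-KO cells, against 2.10 in its WT partner, with counting intervals that overlapped, 2.59 in mTEChi Exp2 and 2.63 at 0 h, whose intervals lay above that of the Aire-KO library (2.03 to 2.13). Col4a3 over Col4a4 was 0.751 (0.443 to 1.27) in Aire-KO cells, against 0.244 (0.196 to 0.302) in its WT partner, but 1.59 in mTEChi Exp2 and 0.560 at 0 h. The Aire-KO ratio lay inside the range of the WT libraries. Col4a5 over Col4a6 was 5.21 in Aire-KO cells, against 16.0 in its WT partner, 6.31 in mTEChi Exp2 and 8.12 at 0 h.

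Among the fibrillar chains outside cartilage, 5 of 8 were within 2-fold. Col5a3, a type V chain, had 6.21 CPM in Aire-KO cells, against 24.7, 24.4 and 51.1 CPM in the 3 untreated WT libraries, 3.39-fold lower (3.14 to 3.66), with an adjusted p of 0.0893 by edgeR. Its fellow type V chains Col5a1 and Col5a2 had folds of 1.11 and 1.21. Col1a1 had 7.57 CPM in Aire-KO cells, against 18.9, 22.0 and 55.4 CPM in WT cells, a fold of 0.470, while Col1a2, its partner in type I collagen, had 10.8 CPM, against 7.84, 7.33 and 18.6 CPM, a fold of 1.61. The ratio of Col1a1 to Col1a2 per length was 0.768 (0.710 to 0.831) in Aire-KO cells, against 2.64, 3.29 and 3.25 in WT cells, so the order of the type I chains was turned round. Col3a1 had 19.6 CPM in Aire-KO cells, against 19.5, 9.46 and 34.3 CPM, inside the WT range, as was its neighbour Col5a2 on chromosome 1, with 18.9 CPM, against 18.3, 36.8 and 56.6 CPM. Col27a1 had 20.0 CPM in Aire-KO cells, against 35.0, 34.0 and 65.2 CPM, a fold of 0.670. Of the fibrillar chains outside cartilage, Col24a1 was the only one that passed the test.

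**Figure D2:**
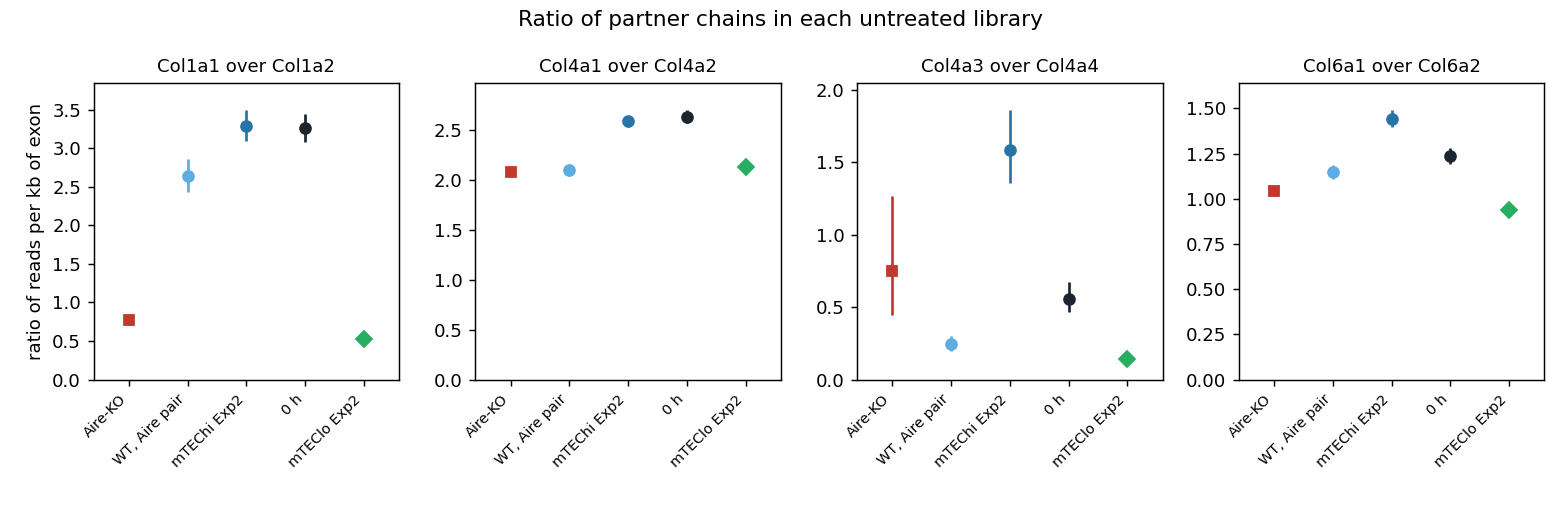
Ratio of reads per kilobase of exon between partner chains in the Aire-KO, 3 untreated WT mTEChi and mTEClo libraries; bars are 95% intervals of counting error. Col1a1 over Col1a2 is 0.768 in Aire-KO cells and 0.521 in mTEClo, under 2.64 to 3.29 in the WT mTEChi libraries.

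The type VI chains and the epithelial anchoring collagens were all within 2-fold. Col6a1 had 92.7 CPM in Aire-KO cells, against 71.0, 47.6 and 74.5 CPM in the 3 untreated WT libraries, and Col6a2 had 83.3 CPM, against 58.1, 31.0 and 56.5 CPM. Both lay above every WT library, with folds of 1.53 and 1.68 in the pair, and neither passed the test (adjusted p = 0.433 and 0.303 by edgeR). Col6a5, a long type VI chain, had 41.9 CPM in Aire-KO cells, against 33.4, 77.2 and 120 CPM. Col17a1, which spans the membrane at hemidesmosomes, had 36.3 CPM in Aire-KO cells, against 59.0, 58.5 and 58.6 CPM, a fold of 0.722 (0.696 to 0.749) beside WT libraries that lay very close. Col7a1, the anchoring fibril collagen, had 2.49 CPM in Aire-KO cells, against 4.54, 3.45 and 17.1 CPM. Both skin antigens were thus lower in CPM than in every WT library, as were 46.7% of all entries. They did not reach 2-fold in the pair, and neither passed the test. Col18a1, which gives rise to endostatin, had 33.9 CPM in Aire-KO cells, against 39.0, 33.6 and 55.1 CPM, and a fold of 1.02.

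Of the fibril-associated collagens, Col14a1 had 98.0 CPM in Aire-KO cells, against 37.6, 71.1 and 71.1 CPM in the 3 untreated WT libraries. Col19a1 had 23.8 CPM in Aire-KO cells, against 8.33, 15.1 and 5.09 CPM. Both were higher in Aire-KO cells than in every WT library, with folds of 3.05 (2.95 to 3.16) and 3.35 (3.11 to 3.61), though with mTEChi Exp2 as WT neither reached 3-fold. Col16a1 and Col22a1 had folds of 1.62 and 1.21, and Col20a1 was 2.46-fold lower. The short chain Col8a2, of the corneal Descemet membrane, had 0.266 CPM in Aire-KO cells, against 2.15, 1.46 and 2.18 CPM, 6.89-fold lower (4.87 to 9.99). Col8a1 had 0.979 CPM, against 3.42, 4.09 and 6.20 CPM.

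The transmembrane collagens Col13a1 and Col23a1 were 6.16-fold and 5.30-fold lower. Col13a1, found at the neuromuscular junction, had 0.154 CPM in Aire-KO cells, against 1.11, 0.849 and 1.23 CPM in WT cells. Col23a1 had 0.678 CPM in Aire-KO cells, against 4.22, 5.97 and 0.775 CPM, so that the 0 h library stood next to the Aire-KO library rather than with the other WT libraries. Col25a1 had a fold of 1.07 (0.795 to 1.45). Col28a1, of peripheral nerve, had 0.357 CPM in Aire-KO cells, against 2.38, 1.89 and 2.17 CPM, 5.69-fold lower (4.19 to 7.84), and Col26a1 was 2.63-fold lower. In CPM, the Aire-KO library lay below all 3 untreated WT libraries for 27 of 42 collagens, beside 46.7% of all entries, and above all 3 for 4 of 42, beside 11.1% of all entries.

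Genes that act with collagens were taken from lists, and those named below were chosen after their values were seen. In the test of the Aire-KO library, 8.64% of all entries fell and 0.0878% rose, and the counts below stand beside these shares. Of 10 cartilage partners, 5 fell in the Aire-KO library by edgeR: Acan (aggrecan, log2 fold -10.41, adjusted p = 0.00878 by edgeR), Comp, Matn3, Cnmd and Prg4 (lubricin). Acan had 0.00699 CPM (1 read) in Aire-KO cells, against 7.20, 12.6 and 19.8 CPM in WT cells, and Matn3 had 0 reads. Sox9, the regulator of chondrocyte genes, had 85.5 CPM in Aire-KO cells, against 68.0, 73.6 and 101 CPM. The rest of this list was mixed. Against the 3 untreated WT libraries, Sox5, Hapln1 and Sox6 had log2 folds of -2.21, -2.06 and -1.71. Sox9 and Matn1 had log2 folds of 0.373 and 0.466. Of 15 basement membrane partners, 2 fell, the nidogen Nid1 (log2 fold -3.11, adjusted p = 0.0331 by edgeR) and the laminin chain Lamc3. The collagenases Mmp8 and Mmp13 fell, of 5 in the list. Of 19 tested genes that make collagen, 1 fell, Creb3l1, and P4ha1, a prolyl hydroxylase, was 3.05-fold higher in the pair with an adjusted p of 0.181 by edgeR. None of 12 processing and crosslinking genes, 9 collagen receptors or 5 hemidesmosome genes passed.

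**Figure D3:**
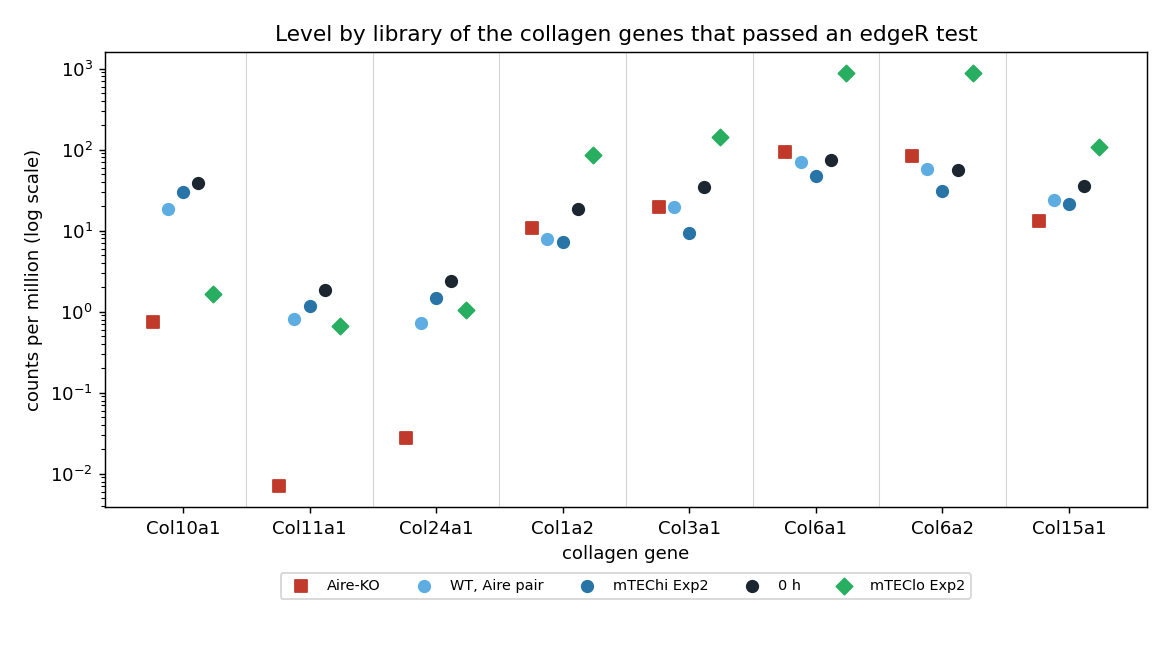
CPM (log scale) in the Aire-KO, 3 untreated WT mTEChi and mTEClo libraries of the 8 collagen genes that passed edgeR in either comparison. Col10a1, Col11a1 and Col24a1 are lowest in Aire-KO cells, and Col1a2, Col3a1, Col6a1, Col6a2 and Col15a1 are highest in mTEClo.

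In mTEChi over mTEClo, 10 of the 43 collagens were at least 3-fold lower, beside 12.8% of all entries, and 2 were at least 3-fold higher, beside 11.8%. The 10 were the stromal chains Col1a2 and Col3a1, the type IV chains Col4a2 and Col4a4, the type VI chains Col6a1, Col6a2, Col6a3 and Col6a6, and the multiplexins Col15a1 and Col18a1 of the basement membrane zone. The 2 were the cartilage chains Col10a1 and Col9a1. The median fold of the 43 was 0.601, against 1.01 over all entries. Summed per length, the type VI chains reached 35.7 CPM per kb in mTEChi Exp2, against 481 CPM per kb in mTEClo, and the type IV chains 36.8 against 107 CPM per kb.

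Col6a2 had 58.1, 31.0 and 56.5 CPM in the 3 untreated WT mTEChi libraries, against 890 CPM in mTEClo, and was 30.2-fold lower (29.4 to 31.0) in the pair. Col6a1 had 71.0, 47.6 and 74.5 CPM in mTEChi, against 890 CPM in mTEClo, 19.6-fold lower (19.2 to 20.1). All WT mTEChi libraries were far under the mTEClo library for both. Col3a1 had 19.5, 9.46 and 34.3 CPM in mTEChi, against 142 CPM in mTEClo, 15.8-fold lower, and Col1a2 had 7.84, 7.33 and 18.6 CPM, against 87.0 CPM, 12.5-fold lower. Col15a1 had 23.6, 21.6 and 35.5 CPM in mTEChi, against 109 CPM in mTEClo, 5.29-fold lower. These 5 genes fell in edgeR's test of the 3 untreated WT mTEChi libraries against mTEClo, in which 1.45% of all entries fell and 1.92% rose: Col6a2 by a log2 fold of -4.35 (SE 0.48, adjusted p = 0.0371 by edgeR), Col6a1 by -3.94, Col1a2 by -3.13, Col3a1 by -2.93 (adjusted p = 0.0478 by edgeR) and Col15a1 by -2.18. All calls of this test were lost without mTEChi Exp2, the library from the same mice as mTEClo: then 0 of 24473 entries passed by edgeR (1650 lower and 1823 higher at an unadjusted p under 0.05), and the adjusted p was 0.0606 for Col6a1 and Col6a2. Without the WT partner of the Aire-KO library, Col3a1 and Col15a1 missed the limit, with 3 collagens still called lower.

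Of the others at least 3-fold lower, Col6a3 had 13.5 and 21.5 CPM in 2 mTEChi libraries, against 61.8 CPM in mTEClo, 3.02-fold lower, and Col6a6 had 2.52, 3.45 and 8.32 CPM in the 3 untreated WT libraries, against 13.1 CPM, 3.99-fold lower. Col18a1 had 39.0, 33.6 and 55.1 CPM in mTEChi, against 139 CPM in mTEClo, 4.35-fold lower, and Col4a2 had 69.2, 63.1 and 95.4 CPM, against 214 CPM, 3.56-fold lower. Col4a2, Col4a4, Col6a6 and Col18a1 did not pass the test, and Col6a3 was not tested for want of a 0 h value. Col4a1 was just outside 3-fold, at 2.94-fold lower. The members of these families did not move as one. Col6a5 had 33.4, 77.2 and 120 CPM in mTEChi, against 34.2 CPM in mTEClo, and was 2.15-fold higher in the pair, where Col6a1 and Col6a2 were lower. Col1a1 had 18.9, 22.0 and 55.4 CPM in mTEChi, against 41.4 CPM in mTEClo, a fold of 0.506, and its ratio to Col1a2 per length was 2.64 to 3.29 in mTEChi, against 0.521 (0.499 to 0.544) in mTEClo. Col4a4 was 6.21-fold lower, with 3.99, 1.29 and 3.31 CPM in mTEChi, against 7.65 CPM in mTEClo, while Col4a3 had a fold of 1.76 (1.40 to 2.23). Col5a3 had 24.7, 24.4 and 51.1 CPM in mTEChi, against 8.91 CPM in mTEClo, 2.60-fold higher, and Col17a1 had 59.0, 58.5 and 58.6 CPM, against 26.3 CPM, 2.11-fold higher. The cartilage chain Col10a1 had 18.6, 30.2 and 38.8 CPM in mTEChi, against 1.63 CPM in mTEClo, 17.6-fold higher (14.7 to 21.3), and it rose in the test (log2 fold 3.99, SE 0.69, adjusted p = 0.0371 by edgeR). Col9a1 had 4.80, 7.67 and 4.46 CPM in mTEChi, against 1.33 CPM in mTEClo, 5.47-fold higher, and did not pass. Col2a1 had 5.22, 10.4 and 12.1 CPM in mTEChi, against 21.3 CPM in mTEClo, a fold of 0.464. In CPM, mTEClo lay above all 3 untreated WT libraries for 17 of 42 collagens, beside 27.6% of all entries, and below all 3 for 9 of 42, beside 36.4%.

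Summed markers of fibroblasts and endothelial cells were also lower in mTEChi than in mTEClo, while those of dendritic cells and macrophages were higher. The 10 fibroblast markers summed to 144 to 215 CPM in the 3 untreated WT mTEChi libraries, against 886 CPM in mTEClo, and 5 of them fell in the same test (Pdgfra, Dcn, Lum, Postn and Dpt). The 8 endothelial markers summed to 61.0 to 89.6 CPM in mTEChi, against 346 CPM in mTEClo, and 5 fell. Pdgfra, a receptor of fibroblasts, had 1.52 CPM in mTEChi Exp2, against 28.0 CPM in mTEClo. The rest of the fibroblast list did not pass and was mixed. In the same test of mTEChi over mTEClo, Fap, Pdgfrb and Thy1 had log2 folds of 1.36, 0.723 and 0.0374. Twist2 had -0.110 and Fbn1 -2.18. The part of fibroblasts and endothelial cells in the collagen differences was not tested. In the Aire-KO library the fibroblast list stood at 207 CPM, inside the WT range, with none of the 10 past the test and Twist2 at 0 reads. Its members differed: 4 lay above all 3 untreated WT libraries in CPM (Dcn, Lum, Postn and Dpt) and 4 below them (Pdgfrb, Fbn1, Fap and Twist2). Dcn (decorin) had 86.5 CPM in Aire-KO cells, against 40.7, 38.8 and 59.2 CPM in WT cells, and Postn (periostin) had 40.3 CPM, against 12.1, 9.24 and 32.7 CPM. In the pair Postn was 3.90-fold, Dcn 2.49-fold, Lum 2.48-fold and Dpt 2.28-fold higher, while Fap had a fold of 0.233. The first 4 were higher in the library in which Col6a1, Col6a2 and Col14a1 were, and their part in those differences was not tested. The endothelial list stood at 50.2 CPM in Aire-KO cells, with 1 of 8 lower. The 6 pericyte and smooth muscle markers summed to 464 to 508 CPM in untreated WT mTEChi, against 629 CPM in mTEClo, the 5 dendritic cell and macrophage markers to 216 to 623 CPM, against 60.5 CPM, the 4 cTEC markers to 79.1 to 104 CPM, against 151 CPM, and the 5 thymocyte markers to 16.4 to 27.1 CPM, against 25.7 CPM. In Aire-KO cells those lists summed to 568, 347, 65.8 and 18.8 CPM. The sum hides a spread in the dendritic cell and macrophage list. In the Aire pair 3 of its 5 markers were at least 3-fold lower, beside 21.1% of all entries, and its median fold was 0.238. Against the 3 untreated WT libraries its log2 folds ran from -3.36 (Itgax) to -0.0210 (Lyz2). The 9 mTEC markers summed to 11997 CPM in Aire-KO cells and 11483 CPM in mTEClo.

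Of the lists of collagen partners, 3 of 19 genes that make collagen were lower in mTEChi than in mTEClo by edgeR: Serpinh1, the collagen chaperone HSP47 (61.8, 107 and 95.2 CPM in mTEChi, against 647 CPM in mTEClo), Fkbp10 and Plod1. Lox and Loxl1, which crosslink collagen, were lower among 12 processing genes, Ddr2 among 9 receptors, and Lamb3 among 15 basement membrane partners. Among the collagenases Mmp2 was lower (log2 fold -3.33, adjusted p = 0.0371 by edgeR) and Mmp13 higher (log2 fold 4.26, adjusted p = 0.0445 by edgeR). Comp and Cnmd were higher among 10 cartilage partners, and no hemidesmosome gene passed. Sox5 and Sox9 of the cartilage list had log2 folds of -2.04 and -1.01, and its other members had positive ones. Over all entries 1.45% were lower and 1.92% higher in this test, and no entry passed without mTEChi Exp2.

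In actinomycin D, 42 collagens were measured, since Col6a3 had no entry in those files. The treated libraries were made with another kit than 0 h, so treatment and kit cannot be told apart in any change from 0 h. With 0.5 reads added, the median log2 change of the collagens from 0 h to 1.5, 3, 6 and 12 h was 0.14, 0.57, -0.05 and -0.20, against -0.13, -0.18, -0.54 and -0.60 over 23850 entries. With a 0 set at 3 reads, a choice made after seeing the data, the collagens stood at 0.14, 0.57, -0.05 and -0.06 and all entries at -0.13, -0.12, -0.34 and -0.09, so the 12 h medians depend on how a 0 is treated. The class medians given next use the second form. The class median of the fibrillar chains outside cartilage was 0.11 at 6 h and 0.08 at 12 h, and that of the type IV chains was -1.26 and -0.76 (-1.23 at 12 h with 0.5 reads added). Cartilage chains had medians of -0.04 and 0.24, and type VI chains of 0.02 and -0.39. The type IV chains did not move as one. At 6 h Col4a1 and Col4a2 stood at -1.26 and -1.27, but Col4a4 and Col4a5 at 0.30 and 0.27. Col4a3 and Col4a6 had only 0 and 2 reads at 6 h. At 12 h Col4a3 and Col4a4 had 0 reads, and Col4a6 stood at 1.74 with 10 reads.

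**Figure D4:**
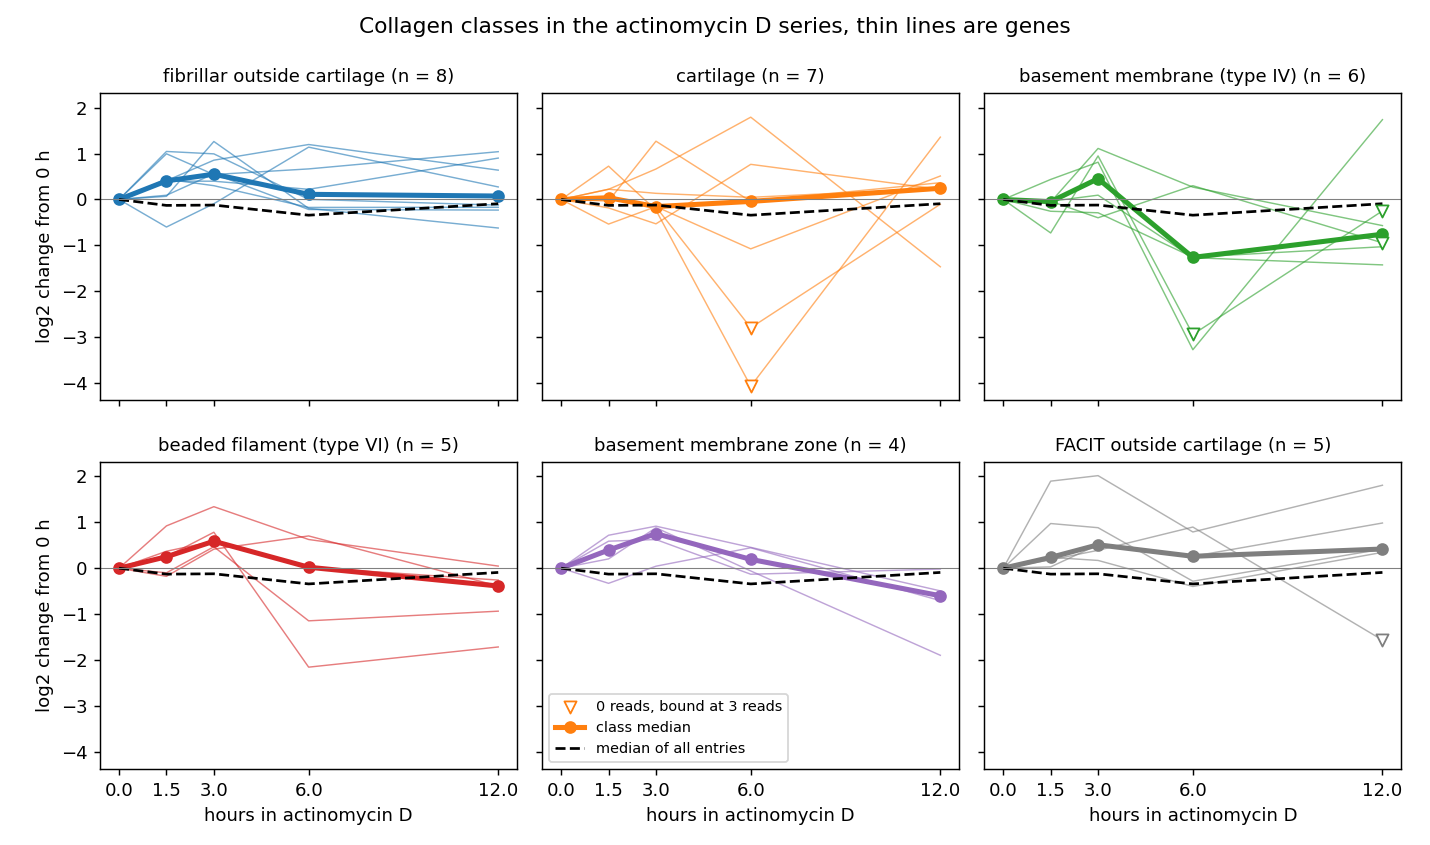
Log2 change of CPM from 0 h over hours in actinomycin D for the collagen genes of 6 classes (thin lines), the class median (thick line) and the median of all entries (dashed); triangles mark genes with 0 reads, drawn at 3 reads. The type IV median is at -1.26 at 6 h, under the -0.34 of all entries, and the fibrillar median is at 0.11.

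Col4a1 had 258, 216, 211, 108 and 127 CPM at 0, 1.5, 3, 6 and 12 h, and Col4a2 had 95.4, 92.8, 102, 39.6 and 35.5 CPM. Both were lower at 6 and 12 h than at the earlier times. Col6a2 had 56.5, 67.1, 97.2, 12.7 and 17.2 CPM, and Col6a1 had 74.5, 69.5, 103, 33.6 and 38.9 CPM, in the same manner. Col10a1 had 38.8, 34.2, 26.9, 66.0 and 45.2 CPM, with its highest value at 6 h. Col5a2 had 56.6, 75.2, 102, 130 and 88.2 CPM, and Col1a1 had 55.4, 75.3, 68.2, 49.1 and 49.2 CPM, the one above its 0 h value at every time and the other below it at 6 and 12 h. Col17a1 had 58.6, 88.1, 90.3, 53.5 and 57.8 CPM, and Col2a1 had 12.1, 14.1, 13.3, 12.5 and 14.3 CPM.

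A slope over hours was fitted to the 4 treated libraries alone. By edgeR no collagen of 40 tested and no entry of 20652 passed (0% lower and 0% higher). At an unadjusted p under 0.05, 5 collagens and 1235 entries had a falling slope, 0 collagens and 661 entries a rising one, and DESeq2 called 147 entries lower and 268 higher, with no collagen. The median slope of the collagens was a log2 of -0.05 per hour, against -0.02 over all entries. Without the 6 h library Col4a2, Col6a2 and Col7a1 of 40 collagens fell, beside 1156 of 20452 entries. Without the 12 h library Col6a2 of 40 fell, beside 518 of 20338 entries. At 6 h, 8 of the 42 collagens had 0 reads, and at 12 h, 7 did, which is 19% and 16.7% of them, beside 26.7% and 21.8% of all entries. No collagen was at 0 reads at the earlier times. A count of 0 allows up to 0.266 CPM at 6 h and 1.72 CPM at 12 h, so a 0 there does not show that a gene was absent. Col8a1 had 568, 88, 32, 0 and 21 reads at 0, 1.5, 3, 6 and 12 h, and Col9a1 had 409, 156, 53, 0 and 20 reads. Each was thus read at 12 h but not at 6 h, and over all entries too more were at 0 at 6 h than at 12 h.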

How the data were processed

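The authors made libraries with TruSeq (pairs and 0 h) or SMARTer with Nextera (treated cells) and split the paired-end reads of the pairs into single reads. Reads were aligned to mm9 with Bowtie 1.0.0, and those wholly within RefSeq exons were counted with bedtools, without strand. In the mm9 annotation, exons of 9 collagens overlap another gene. A read counts for both genes only where it lies wholly in the overlap, which the shortest overlaps do not allow. For the pairs the deposited values were counts divided by DESeq size factors (a normalised signal); whole reads were recovered from their steps, with 100% of values within 0.1 of a whole number. The actinomycin D files held raw deposited counts. Authors' fold changes and p-values were not used. In the Aire pair the columns were assigned from the study's code. Fold classes (3-fold, 2-fold) needed 10 normalised counts summed over a pair. All entries were tested with edgeR 4.0.16 (quasi-likelihood, TMM, filterByExpr, Benjamini-Hochberg at 0.05); DESeq2 1.42.0, total-count scaling, no filter and leaving out each library were alternatives. Log2 changes from 0 h added 0.5 reads, or set a 0 at 3 reads; entries needed 10 reads over 5 libraries. SE is the log2 fold over the square root of F. The fits were tested on simulated data. Every member could be named; full values went to members at least 3-fold different, the highest of each class, antigens and neighbouring genes. Members and lists were chosen with earlier results of these data known. Symbols came from RefSeq (GRCm38.p6), which named 98.1% of entries, and loci from mm9 annotation.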

Additional observations from a re-analysis of the deposited data

How the results depend on the processing

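For Aire-KO over WT, 12 collagens were at least 3-fold lower with normalised counts. The count was between 10 and 17 under the other scalings, minimums, entries and a fold of 2. With total-count scaling, 23.4% of all entries were at least 3-fold lower. The count was 16 of 43 with mTEChi Exp2 as WT (24% of all entries), and 20 of 42 with the 0 h library as WT (27.5%). The 2 that were at least 3-fold higher became 0 with total-count scaling (1.27% of all entries), 0 with mTEChi Exp2 (0.555%) and 1 with the 0 h library as WT (4.21%). Total-count scaling set the median of all entries at a log2 fold of -0.26, against -0.03 with normalised counts. For mTEChi over mTEClo, a fold of 2 gave 16 lower and 7 higher (20.2% and 18.7% of all entries), and the 0 h library as mTEChi gave 6 lower and 4 higher (12.7% and 15.5%), against 10 and 2. In the test against 3 WT libraries, DESeq2 called 12 collagens lower, and 3738 entries lower and 81 higher (edgeR 2066 and 21). Leaving out each WT library in turn gave 4 to 9 collagens lower, 1762 to 3072 entries lower and 24 to 109 higher. In the test against mTEClo, DESeq2 called 7 collagens lower and 2 higher (edgeR 5 and 1), and 973 entries lower and 1824 higher (edgeR 357 and 475). Leaving out each WT library gave 0 to 9 collagens lower and 0 to 2 higher, and 0 to 1005 entries lower and 0 to 1780 higher. For the slopes, DESeq2 called 147 entries lower and 268 higher, and leaving out each treated library gave 0 to 3 collagens lower, 0 to 1156 entries lower and 0 to 718 higher, against 0 in each. The cause of these differences was not tested.

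No paired analysis was possible because the Aire-KO and WT libraries share the number 2 in their titles but are 1 library each. Depth limits the 12 h library most, where the median collagen had 29.5 reads.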
